A study of Oryza sativa with 4 samples.

Results

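The genes described here encode the high mobility group B (HMGB) proteins of rice, among them OsHMGB1, the gene mutated in the study. Members were the accessible regions, or peaks, that the deposited table annotates to LOC_Os06g51220 (OsHMGB1), to a gene whose symbol begins with HMGB, or to a gene described as a high mobility group B protein. This gave 14 of the 46114 listed peaks, at 8 genes. ATAC-seq was the assay: a transposase, Tn5, inserts sequencing adapters where chromatin is open, so that the number of reads in a peak measures how accessible that stretch of DNA was. Leaf blades of greenhouse-grown rice (Oryza sativa) seedlings were used, and all 4 libraries came from plants held for 28 days under the condition that the labels call HP, without further definition. The groups differed in genotype, with 2 libraries of WT and 2 of the Oshmgb1 mutant. The sources used here do not say what kind of mutation it was, how many mutant lines were used or whether the libraries came from separate plants. A p-value therefore reflects the spread among 4 libraries, estimated in part by sharing information among peaks, and that spread could be technical. The comparison asked whether chromatin at the mutated gene and at its relatives was more or less open in the mutant.

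HMGB proteins are small, abundant non-histone chromatin proteins. Through the HMG box, a fold that inserts into the minor groove, they bind DNA with little sequence preference and bend it, which is known to help transcription factors and other proteins assemble on DNA. Plant genomes carry several kinds. Canonical HMGB proteins have a single HMG box between a basic stretch and an acidic tail, ARID-HMG proteins join an HMG box to an AT-rich interaction domain, and a further kind carries repeated HMG boxes and, in Arabidopsis, associates with mitotic chromosomes. The symbols in the table are borrowed in part from other species. Both OsHMGB1 and LOC_Os04g47690 are listed as HMGB2 and are described as DNA-binding protein MNB1B, a maize name. That LOC_Os06g51220 is OsHMGB1 is background knowledge, and HMGB2 below means LOC_Os04g47690. The canonical kind is represented by OsHMGB1, HMGB2, HMGB3 (LOC_Os02g44930), HMGB4 (LOC_Os09g37910) and HMGB14 (LOC_Os01g47600). HMGB9 (LOC_Os09g37250) and HMGB15 (LOC_Os02g27060) carry the symbols of Arabidopsis ARID-HMG proteins. HMGB6 (LOC_Os02g15810) carries the symbol of an Arabidopsis protein with repeated HMG boxes, while its description reads HMGB protein 13. The assignment of the rice genes to these kinds rests on their symbols.

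Reads in listed peaks numbered 7228483 and 8183354 in the WT libraries and 10400677 and 8516630 in the Oshmgb1 libraries, and a median peak held 105 to 155 reads. HMGB peaks held between 46 and 1178 reads in a library. As a check of the tissue, 33 peaks at 17 leaf genes (Rubisco small subunit, Rubisco activase and chlorophyll a-b binding proteins) had a median of 61.5 CPM per kb of peak, against 25.6 over all peaks, where CPM are reads scaled to the size of the library. The shoot meristem marker list had 1 peak at 18.3 CPM per kb, and the 8 peaks of the root list had a median of 30.4. The leaf list was thus the most accessible of the 3, while accessibility alone does not show which cells were sampled. In these bulk samples, fewer cells of a type with the region open and less opening per cell cannot be told apart.

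Every one of the 8 genes had a listed peak across its annotated start. Over all genes with a listed peak, 49.2% had one across the start (13350 of 27130). The authors' annotation classes do not show this directly. The HMGB3 peak is classed as intron 1 of 6 and an HMGB9 peak as exon 3 of 6, yet the former began 627 bp before the gene start and the latter 155 bp before it. The remaining 6 peaks lay at exon 7 of 8 of OsHMGB1, in intron 2 of 6 of HMGB15, more than 1 kb upstream of HMGB9, and downstream of HMGB9, HMGB4 and HMGB6. The last of these was closer to the start of the neighbouring gene LOC_Os02g15800 by the authors' annotation, and its centre lay 5019 bp from the start of HMGB6, so its tie to HMGB6 is loose. HMGB peaks were 373 to 1787 bp wide, with a median of 712 bp against 560 bp over all peaks.

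**Figure D1:**
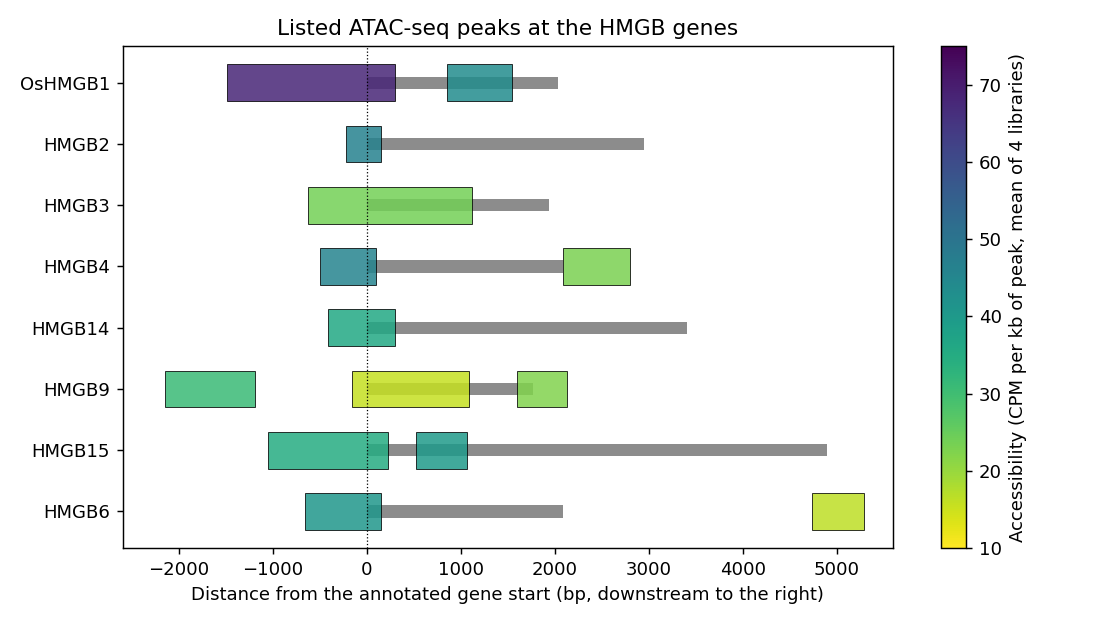
Peaks (boxes, coloured by accessibility in CPM per kb of peak, mean of 4 libraries) and gene bodies (grey bars) of the 8 HMGB genes, drawn to scale against the distance in bp from the annotated gene start. Each gene has a box across the dotted line at its start, and the darkest box is the promoter peak of OsHMGB1 at 68.1 CPM per kb.

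Levels are compared here per kb of peak, as means over the 4 libraries. The OsHMGB1 promoter peak was the most accessible of the HMGB peaks at 68.1 ± 5.90 CPM per kb (SD, n = 4), more than 98.0% of all listed peaks. It stood apart from the next, since its lowest library (62.9) lay above the highest library of the HMGB2 promoter peak (49.1). From HMGB2 (46.4 ± 3.33) the levels went down in small steps through the HMGB4 promoter (45.6 ± 5.32), the OsHMGB1 exon (43.7 ± 1.85), the HMGB6 promoter (40.6 ± 3.83), the HMGB15 intron (39.9 ± 5.93), the HMGB14 promoter (36.1 ± 4.05), the HMGB15 promoter (35.1 ± 3.96) and the HMGB9 promoter (30.9 ± 4.34). Neighbours in this run had overlapping library values, so their order is not resolved. The HMGB3 peak (23.9 ± 0.561), the downstream peaks of HMGB4 (23.1 ± 3.23) and HMGB9 (22.3 ± 1.76), and, apart from these, the HMGB6 downstream peak (16.4 ± 3.64) and the HMGB9 exon peak (15.8 ± 2.80) were lower. The last 2 also overlapped each other. The HMGB9 exon peak, although it crosses the gene start, was more accessible per kb than only 0.848% of all listed peaks.

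OsHMGB1, whose product gives the study its title, was measured first. Its promoter peak on chromosome 6 (30991770 to 30993556, in the authors' coordinates, for which the sources used here name no build) is 1787 bp wide and runs from 1484 bp before the annotated gene start to 302 bp after it. It measured 124 and 136 CPM in the WT libraries and 112 and 115 CPM in the Oshmgb1 libraries. Both mutant values lay below both WT values, by a margin smaller than the gap between the WT libraries. The log2 fold change, Oshmgb1 over WT, was -0.19 ± 0.10 (SE, n = 2 per genotype), with a 95% interval of -0.38 to -0.0045. In edgeR's quasi-likelihood test the unadjusted p was 0.0448 and that adjusted over all peaks 0.396, so the peak was not called at 0.05. DESeq2 gave an unadjusted p of 0.0740. In the authors' deposited table the peak has a p-value of 0.0158 and an FDR of 0.956.

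The exon peak of OsHMGB1 (30994103 to 30994794) measured 30.9 and 31.6 CPM in WT and 29.9 and 28.7 CPM in Oshmgb1. The groups did not overlap here either, but the difference was -0.09 ± 0.15 (SE) on the log2 scale (edgeR adjusted p 0.843). Summed over both peaks, the gene had a log2 fold change of -0.17 ± 0.08 (SE), and edgeR gave 0.0446 as its unadjusted p and 0.385 after adjustment over 27130 genes. The promoter peak held 80.1% and 81.1% of the gene's peak reads in the WT libraries (95% Wilson intervals 77.6 to 82.3% and 78.9 to 83.1%), and 79.0% and 80.0% in the Oshmgb1 libraries (76.9 to 81.0% and 77.7 to 82.1%). These intervals overlapped. They cover counting error only. Reads over the gene do not test the genotype label, because the position and kind of the mutation are not known here.

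The value of OsHMGB1 was read against peaks of like level, since the log2 fold change drifted with level in these libraries. Among the 462 most read peaks, the top 1%, the median log2 fold change was -0.08 and 78.8% were below 0. Over all 46114 peaks the median was -0.01 and 51.1% were below 0. The OsHMGB1 promoter peak, at -0.19, lay between the 2.5th percentile (-0.23) and the first quartile (-0.11) of that top group. With an offset that follows this drift, an alternative chosen after seeing the data, its log2 fold change was -0.13, with an unadjusted edgeR p of 0.110. Without WT replicate 2 it was -0.12, and without WT replicate 1 it was -0.26, with edgeR adjusted p-values of 0.573 and 0.193.

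The surroundings of OsHMGB1 were measured within 25 kb on either side of its start. There were 7 other listed peaks there, and the OsHMGB1 promoter peak was more accessible per kb than each of them, the highest being at 51.3 CPM per kb. Their log2 fold changes ran from -0.24 to 0.16, and 4 of the 7 were below 0. None was called by edgeR, the lowest adjusted p being 0.406, and 1 had an unadjusted p under 0.05, while DESeq2 called 0 and gave 0 at that level. The peak in question, a 3′ UTR peak of LOC_Os06g51240, was at 56.3 CPM in WT and 47.9 CPM in Oshmgb1, a log2 fold change of -0.23, close in size to that at the OsHMGB1 promoter. It was singled out after its value was seen. LOC_Os06g51240 is described as similar to a translation initiation factor. Windows of the same size around the other HMGB genes held 4 to 8 other peaks each, and edgeR called none of them, with adjusted p-values down to 0.200 near HMGB15. An unadjusted edgeR p under 0.05 was found at 3 of 8 peaks near HMGB9, 2 of 8 near HMGB15 and 1 of 7 near HMGB3. Near HMGB14, HMGB2, HMGB4 and HMGB6 there were 0. DESeq2 gave 0 at that level near HMGB9, 0 near HMGB15 and 1 near HMGB3. Over all listed peaks, edgeR called 0.403%, and 12.2% had an unadjusted p under 0.05 (3.78% with DESeq2).

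**Figure D2:**
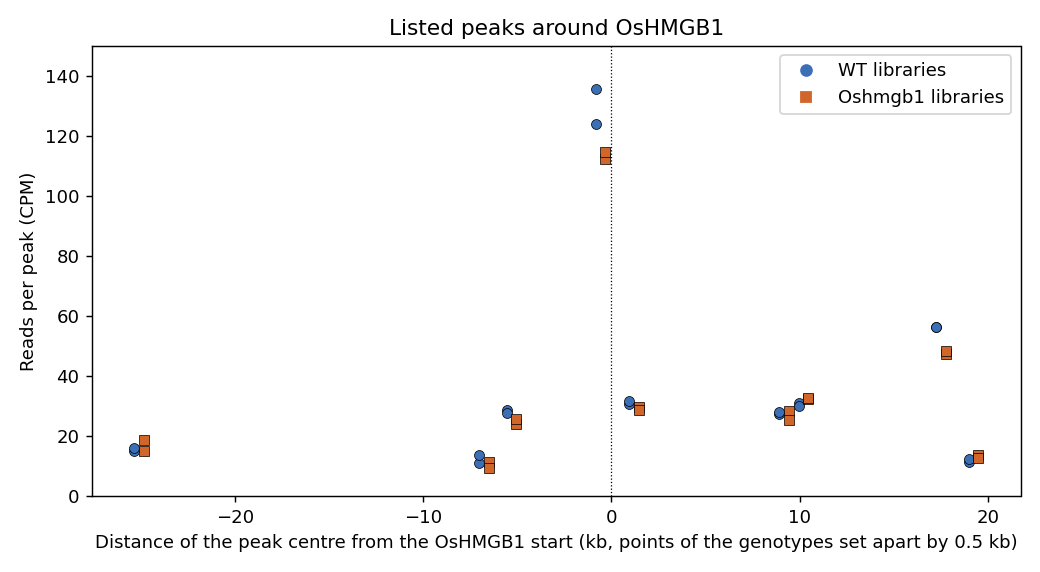
Reads per peak in CPM in each library for the listed peaks within 25 kb of the OsHMGB1 start, against the distance of the peak centre from that start in kb. The OsHMGB1 promoter peak is the tallest, at 124 and 136 CPM in WT and 112 and 115 CPM in Oshmgb1. No peak in the window was called by edgeR, where 0.403% of all listed peaks were called.

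The other canonical HMGB genes did not share a single direction. HMGB2, the gene listed under the same symbol as OsHMGB1, had 1 narrow promoter peak (chromosome 4, 28292965 to 28293337) that measured 17.4 and 15.5 CPM in WT and 17.9 and 18.3 CPM in Oshmgb1. Both mutant values lay above both WT values by a little, the opposite order to OsHMGB1, and the log2 fold change was 0.14 ± 0.19 (SE; edgeR adjusted p 0.809). Whether the genotype effect differs between the 2 genes was not tested.

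HMGB3 and HMGB4 are described as HMG1/2-like proteins, after the animal HMGB family. The HMGB3 peak (chromosome 2, 27224648 to 27226396) measured 42.8 and 42.3 CPM in WT and 41.3 and 40.6 CPM in Oshmgb1. This was the tightest set of the HMGB peaks: the groups did not overlap, yet the log2 fold change was only -0.05 ± 0.13 (SE; edgeR adjusted p 0.906), with a 95% interval of -0.30 to 0.20. The HMGB4 promoter peak (chromosome 9, 21856369 to 21856972) measured 30.7 and 23.1 CPM in WT and 28.5 and 27.8 CPM in Oshmgb1. The mutant libraries lay between the WT libraries, and the log2 fold change was 0.07 ± 0.15 (SE; edgeR adjusted p 0.896). Its downstream peak measured 16.6 and 15.6 CPM in WT and 19.5 and 14.0 CPM in Oshmgb1, so here the mutant libraries stood on either side of WT.

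HMGB14 had a promoter peak (chromosome 1, 27236093 to 27236805) with 29.7 and 25.5 CPM in WT and 24.9 and 22.9 CPM in Oshmgb1. Both mutant libraries were lower, and the log2 fold change was -0.21 ± 0.16 (SE; edgeR adjusted p 0.631), with a 95% interval of -0.52 to 0.11. It was -0.09 without WT replicate 1 and -0.31 without WT replicate 2. Of the 7 peaks at canonical genes, 4 had a log2 fold change below 0, with a median of -0.05.

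Among the genes with ARID-HMG symbols, HMGB15 had both of its peaks lower in the mutant libraries. In Arabidopsis HMGB15 is known for its part in pollen tube growth. The promoter peak (chromosome 2, 15909643 to 15910918) measured 50.9 and 46.9 CPM in WT and 40.5 and 40.8 CPM in Oshmgb1, and the intron peak (15911214 to 15911759) measured 26.0 and 22.1 CPM in WT and 18.1 and 21.0 CPM in Oshmgb1. The groups did not overlap at either peak. The log2 fold changes were -0.27 ± 0.12 and -0.30 ± 0.17 (SE), with edgeR unadjusted p-values of 0.0331 and 0.0855 and adjusted p-values of 0.359 and 0.494. The intron value was -0.18 without WT replicate 1 and -0.19 without Oshmgb1 replicate 1. Summed over both peaks, HMGB15 had the lowest p of the 8 genes: the log2 fold change was -0.27 ± 0.10 (SE), the edgeR unadjusted p 0.00939 and the adjusted p 0.228, with an unadjusted DESeq2 p of 0.0339. It was not called. The share of its reads in the promoter peak was 67.1% ± 1.22 in WT and 67.5% ± 2.13 in Oshmgb1 (SD, n = 2).

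HMGB9 had peaks upstream, across the start and downstream, and the genotypes overlapped at the former 2. The upstream promoter peak (chromosome 9, 21518808 to 21519771) measured 34.1 and 24.1 CPM in WT and 30.9 and 30.0 CPM in Oshmgb1. The peak across the start (21516536 to 21517776) measured 18.2 and 23.2 CPM in WT and 21.5 and 15.4 CPM in Oshmgb1. These peaks had log2 fold changes of 0.07 ± 0.15 and -0.16 ± 0.18 (SE). The downstream peak measured 13.0 and 11.9 CPM in WT and 11.5 and 10.8 CPM in Oshmgb1, lower in both mutant libraries, at -0.15 ± 0.21. The edgeR adjusted p-values of the 3 peaks ran from 0.761 to 0.890. The start of HMGB9 lies 339 kb from that of HMGB4 on chromosome 9.

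HMGB6, the gene with the symbol of a protein with repeated HMG boxes, had the HMGB peak with the largest log2 fold change in the fit of all 4 libraries. This was the downstream peak (chromosome 2, 8931885 to 8932438), which measured 6.45 and 8.55 CPM in WT and 10.6 and 10.7 CPM in Oshmgb1. Both mutant libraries were higher. The log2 fold change was 0.50 ± 0.23 (SE), with a 95% interval of 0.04 to 0.96 (edgeR p 0.0343 before and 0.363 after adjustment). It is the least read HMGB peak, with 46 reads in its lowest library, DESeq2 gave an unadjusted p of 0.121, and all listed peaks at about its level had a median log2 fold change of 0.04. Without WT replicate 1 its log2 fold change was 0.32 (unadjusted edgeR p 0.226), smaller than that of the HMGB9 promoter peak in the same fit (0.34). The promoter peak of HMGB6 (8937036 to 8937845) measured 37.3 and 30.3 CPM in WT and 31.3 and 32.7 CPM in Oshmgb1. Here the groups overlapped, at a log2 fold change of -0.08 ± 0.14 (SE; edgeR adjusted p 0.873).

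The share of HMGB6 reads in the promoter peak was 85.3% and 78.0% in WT and 74.7% and 75.3% in Oshmgb1. The mutant libraries were lower, by a mean of -6.63 percentage points. An exact two-sided permutation test gave p = 0.333, which is the smallest p that 2 libraries against 2 allow.

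**Figure D3:**
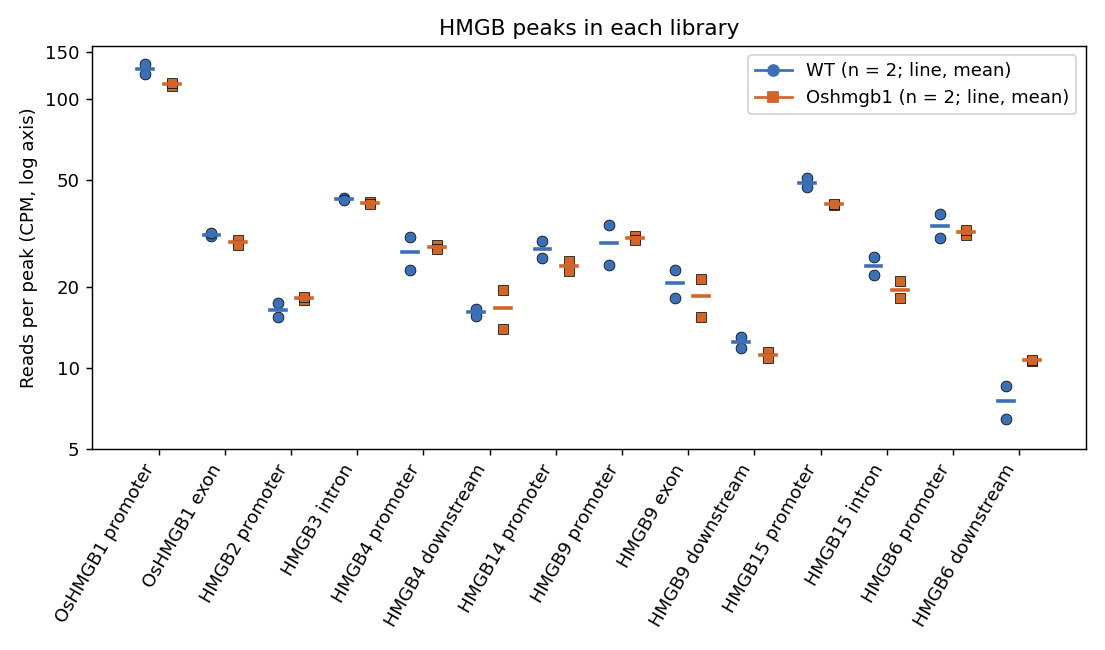
Reads per peak in CPM (log axis) at each HMGB peak in the WT libraries (circles) and the Oshmgb1 libraries (squares), with lines at the means of n = 2. The genotypes overlap at 5 of the 14 peaks, beside 26185 of all 46114 listed peaks. The OsHMGB1 promoter values are the highest, at 112 to 136 CPM.

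Over the whole family, 0 of the 14 HMGB peaks were called by edgeR's quasi-likelihood test at a Benjamini-Hochberg adjusted p under 0.05, against a background of 0.403% of all peaks (0.0824% lower and 0.321% higher in Oshmgb1). At an unadjusted edgeR p under 0.05 there were 3 HMGB peaks, the OsHMGB1 and HMGB15 promoters and the HMGB6 downstream peak, where 12.2% of all peaks passed (5.22% lower and 6.94% higher in Oshmgb1). DESeq2 called 0 and had 0 at an unadjusted p under 0.05, with backgrounds of 0.0976% and 3.78%. Of the HMGB peaks, 0 have an FDR under 0.05 in the authors' deposited table (background 0.102%) and 2 have a p-value under 0.05 (4.79%), the promoters of OsHMGB1 and HMGB15. On summed reads 0 of the 8 genes were called by edgeR, against 0.546% of all genes, and OsHMGB1 and HMGB15 had an unadjusted p under 0.05, against 12.5%. DESeq2 called 0 of the 8 genes, against 0.133% of all genes, and 1 of the 8, HMGB15, had an unadjusted p under 0.05, against 4.27%.

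The log2 fold changes of the HMGB peaks ran from -0.30 to 0.50, and 9 of the 14 were below 0. Their median was -0.09, beside -0.01 for all peaks. It was -0.05 with the offset that follows peak level, -0.05 without Oshmgb1 replicate 2, -0.13 with the library totals behind the RPKM and -0.15 without Oshmgb1 replicate 1. Of the 14 HMGB peaks, 8 averaged at least 23.4 CPM, and 6 of these 8 were below 0, with a median of -0.085. Of all listed peaks at or above that level, 61.8% were below 0, with a median of -0.045. Among the 8 peaks across a gene start, 6 were below 0 and the median was -0.12. Of all listed peaks of a promoter class, whether or not across a start, 54.6% were below 0, with a median of -0.02. Both Oshmgb1 libraries lay below both WT libraries at 7 HMGB peaks and above them at 2. Over all peaks each of these orders was found in 21.6%, and the groups did not overlap in 43.2%. At 7 of the 14 peaks the range between the libraries of a genotype was wider than the difference between the genotype means, as at 70.2% of all peaks. The WT libraries were further apart than the Oshmgb1 libraries at 10 HMGB peaks, and at 54.8% of all peaks.

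The intervals of the fit of all 4 libraries limit the size of the difference between these libraries. They rest on 2 libraries per genotype and on a spread that edgeR estimates in part from other peaks. No such intervals were worked out with DESeq2. It gave the HMGB6 downstream peak an unadjusted p of 0.121, against 0.0343 with edgeR. Whether the limits below also hold with DESeq2 was not tested. With edgeR, the 95% interval excluded a 2-fold difference in either direction at 14 of the 14 HMGB peaks, where this held for 95.2% of all peaks. A 1.5-fold difference was excluded at 12 of them (57.9% of all peaks), the exceptions being the HMGB15 intron and HMGB6 downstream peaks. Standard errors were from 0.10 for the OsHMGB1 promoter to 0.23 for the HMGB6 downstream peak. The log2 fold change of the HMGB6 downstream peak was 0.32 without WT replicate 1 and 0.725 without WT replicate 2.

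**Figure D4:**
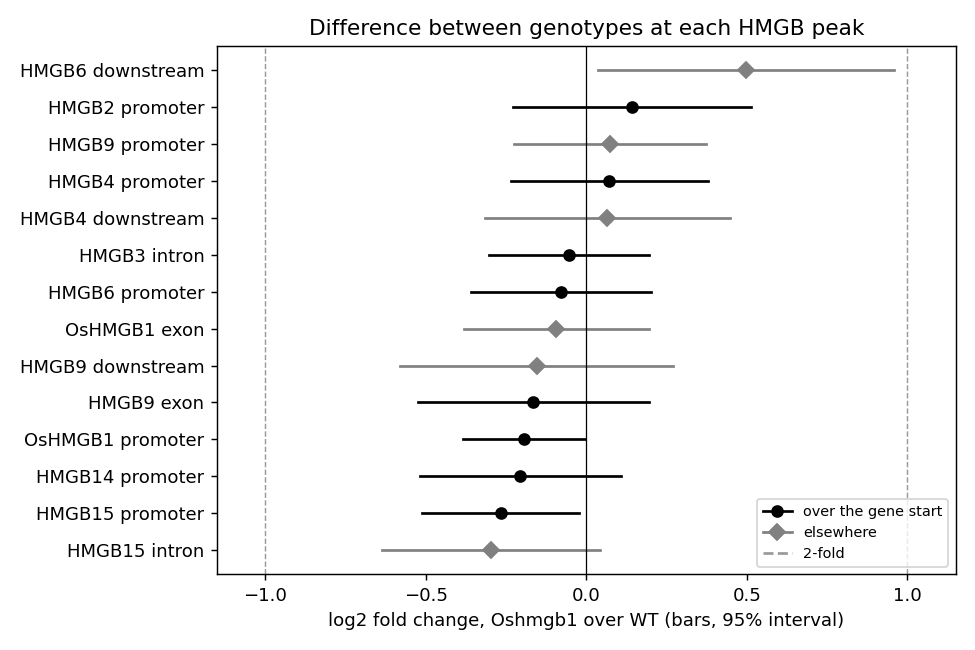
Log2 fold change, Oshmgb1 over WT, at each HMGB peak with its 95% interval from edgeR's quasi-likelihood fit (black, peaks across a gene start; grey, other peaks). All 14 intervals lie inside the dashed lines at a 2-fold difference, and the intervals of the OsHMGB1 promoter, the HMGB15 promoter and the HMGB6 downstream peak do not reach across 0. Of all listed peaks, 12.2% had an unadjusted edgeR p under 0.05. DESeq2 gave 0 HMGB peaks at that level.

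Peaks most like the OsHMGB1 promoter were sought among 14745 promoter peaks of other genes with a name or description, by the root mean square difference of log2 CPM over the 4 libraries. The 5 closest were at LOC_Os02g47020, a chloroplast phosphoribulokinase of the Calvin cycle (0.052), LOC_Os04g54430 (0.059), PSBO (LOC_Os01g31690, a subunit of the oxygen-evolving complex of photosystem II, 0.075), RAP (LOC_Os05g04630, an aspartic proteinase by its description, 0.084) and MNB1A (LOC_Os08g38220, a Dof zinc finger protein, 0.087). The phosphoribulokinase peak measured 124 and 128 CPM in WT and 115 and 110 CPM in Oshmgb1, nearly the same values as the OsHMGB1 promoter. All 5 had log2 fold changes between -0.16 and -0.10. This follows in part from the choice, since the measure used all 4 libraries and so also the difference between genotypes. None of the 5 was called, with edgeR adjusted p-values from 0.508 to 0.719, where 0.403% of all peaks were called. With 4 libraries this measure mostly reflects a like level.

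Other chromatin genes were counted from lists made of words in the descriptions. Further HMG-box proteins had 4 peaks at 2 genes, SSRP1-A, the HMG-box subunit of the histone chaperone FACT, and wdhd1, described as a WD repeat and HMG-box DNA-binding protein. None of the 4 was called by edgeR. The lowest p was at an exon peak of wdhd1 (LOC_Os09g06560), which measured 12.3 and 13.7 CPM in WT and 7.73 and 8.98 CPM in Oshmgb1, a log2 fold change of -0.65 ± 0.22 (SE) with an edgeR p of 0.00429 before adjustment and 0.179 after it. SPT16, the partner of SSRP1 in FACT, had 4 peaks at 3 genes, and linker histone H1, which binds the same linker DNA as HMGB proteins, had 3 peaks at 3 genes. None of these was called or had an unadjusted edgeR p under 0.05. The lowest p-values were at an exon peak of SPT16 (LOC_Os08g31240, 0.23 ± 0.15, unadjusted edgeR p 0.140) and at a promoter peak of a histone H1 gene (LOC_Os03g58470, 0.24 ± 0.19, unadjusted edgeR p 0.223).

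Core histones had 56 peaks at 38 genes with 0 called, 30 below 0 and a median log2 fold change of -0.01. Of these peaks, 5 had an unadjusted edgeR p under 0.05, 1 of them lower in Oshmgb1. AT-hook proteins, whose short motif also binds the minor groove, had 34 peaks at 19 genes with 0 called, 4 at an unadjusted p under 0.05, each lower in Oshmgb1, 18 below 0 in all and a median of -0.01. The lowest p-values of these lists were at the 3′ UTR peak of a late histone H2B (LOC_Os09g39730, 0.71 ± 0.23, edgeR adjusted p 0.145) and at a promoter peak of an AT-hook protein (LOC_Os01g14430, -0.31 ± 0.11, adjusted p 0.212). Histone chaperones had 16 peaks at 8 genes with 0 called and 4 at an unadjusted edgeR p under 0.05, 3 of these lower in Oshmgb1. Of the 16 peaks, 14 were below 0, with a median of -0.15. Of all listed peaks, 51.1% were below 0. The lowest p of the chaperone peaks was at an exon peak of FSM (LOC_Os07g17210, a subunit of chromatin assembly factor 1), which measured 8.70 and 8.80 CPM in WT and 4.11 and 5.60 CPM in Oshmgb1, a log2 fold change of -0.86 ± 0.24 (SE; edgeR adjusted p 0.0851). The words also took in LOC_Os08g43130, described as probable protein NAP1, a name shared with a regulator of actin. Its 2 peaks are in the counts of the chaperone list, and whether it is a histone chaperone was not tested. Over the 117 peaks of the 6 lists together, edgeR called 0 and gave 14 at an unadjusted p under 0.05, and DESeq2 called 0 and gave 8. At an unadjusted p under 0.05, the background over all peaks was 12.2% for edgeR (5.22% lower in Oshmgb1) and 3.78% for DESeq2. Of all peaks, edgeR called 0.403% and DESeq2 called 0.0976%.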

How the data were processed

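ATAC-seq was run on 2 WT and 2 Oshmgb1 libraries of leaf blades. The submitters' processing notes name ChIPseeker 1.16.1, MACS2 2.1.2, Bowtie2 2.4.4, fastp 0.23.0 and bcl2fastq 2.19 without their settings. The sources used here do not give the genome build, any shift of reads for Tn5 or any removal of duplicates, and duplicates, if kept, inflate counts. The authors deposited whole read counts for each merged peak and library, and these were tested here. Deposited RPKM served only to find the library totals behind them. The deposited p-value and FDR are quoted as the authors' own. The deposited log2 fold change, a ratio of mean RPKM, was not used. The table lists 46114 peaks, numbered up to 57405, and unlisted numbers were not analysed here. No column of another sample was found (0).

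Counts were fitted over the whole table using edgeR 4.0.16 (R 4.3.3) after TMM scaling and edgeR's own filter, which removed 0 peaks. Genotypes were compared by a quasi-likelihood test without covariates, with Benjamini-Hochberg adjustment over all peaks at 0.05. CPM are scaled by TMM. Standard errors were worked out from F statistics. Reads were also summed over the peaks of each gene. DESeq2 1.42.0 was the alternative test. Figures used matplotlib 3.10.9. Chi-square values per degree of freedom between replicates were 2.50 in WT and 2.25 in Oshmgb1, above counting noise, so all 4 libraries were kept apart. The test was also tried on counts simulated from the means, depths and spread of the fit to these data. The members, lists and named genes were chosen with earlier results of these data known. By rule, every HMGB gene is named, with the 5 promoter peaks most like the OsHMGB1 promoter and, per list, the peaks called or the peak with the lowest p. Alternatives were the scaling, the filter, the replicate block and each library left out.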

Additional observations from a re-analysis of the deposited data

How the results depend on the processing

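Of the 12 alternatives run, that without a filter repeats the reported fit at peak level, since the filter removed 0 peaks. No HMGB peak and no HMGB gene on summed reads was called under any of the alternatives. The log2 fold change of the OsHMGB1 promoter peak was below 0 in each of them, from -0.26 to -0.12, and without single libraries it covered that same range (-0.256 to -0.1245). HMGB peaks at an unadjusted p under 0.05 numbered 3 in the reported fit, 0 with DESeq2, 1 with the intensity-dependent offset, and 0 to 3 without single libraries. They numbered 2 with library totals over the listed peaks and 2 with the replicate block, where the OsHMGB1 promoter had an unadjusted p of 0.0622 and 0.0788. All peaks called numbered 186 in the reported fit, 45 with DESeq2, and 75 to 530 without single libraries. Directions turned only with a library left out, which gave log2 fold changes from -0.22 (without WT replicate 2) to 0.077 (without WT replicate 1) at the HMGB6 promoter, from -0.16 (without WT replicate 2) to 0.34 (without WT replicate 1) at the HMGB9 promoter, and from -0.12 to 0.29 without the same libraries at the HMGB4 promoter. At the HMGB9 exon they ran from -0.43 without Oshmgb1 replicate 1 to 0.047 without Oshmgb1 replicate 2, with 0.03 without WT replicate 2, and at the HMGB4 downstream peak from -0.20 without Oshmgb1 replicate 1 to 0.28 without Oshmgb1 replicate 2. The cause was not tested. Replicate numbers did not pair the libraries (correlation of deviations -0.0355), and with the replicate block the OsHMGB1 promoter peak had a log2 fold change of -0.19, 0 HMGB peaks were called and 179 peaks in all.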
